A study of Mus musculus with 10 samples.

Results

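Wild type mice were kept at 4 °C for 24 h, and the transcriptome of their interscapular brown fat (iBAT), a depot between the shoulder blades that makes heat, is described here. The 5 wild type mice of the series (replicates 2, 3, 5, 6 and 7) were chosen by their genotype label, out of 10 mice, and no value of the other genotype was used. They were 12 weeks old, carried no deletion, came from the C57BL/6N-ΔGm15551 strain and were singly housed in the cold before dissection. The study's methods give a chow diet for these mice. Each mouse gave 1 library of poly A RNA, read from both ends. Without a group kept at room temperature among the 5 mice, levels after cold are given and no effect of cold is. The whole tissue was homogenised, so that fewer cells of a type and less RNA per cell cannot be told apart.

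Brown adipocytes burn fatty acids and glucose in densely packed mitochondria. Their marker protein, uncoupling protein 1 (UCP1), lets protons return across the inner mitochondrial membrane without making ATP, so that the energy is released as heat. Cold acts through noradrenaline from sympathetic nerves, which drives the breakdown of stored triglyceride, the uptake of fatty acids and glucose from blood and, in mice kept in the cold, also the synthesis of new fat. The enzymes of these pathways, the respiratory chain and its mitochondrially encoded subunits are therefore the parts of the transcriptome for which this tissue is known.

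Of 54347 gene records, 27995 had a count in at least 1 of the 5 mice, and 13175 reached a mean of at least 1 CPM (the count scaled to a library total of 1000000). These 13175 genes held from 99.7 to 99.8% of the counts in each mouse. The library totals ranged from 9680976 to 15771170 counts, and a count of 0 allowed up to 0.190 to 0.310 CPM, for counting error only. Replicate 7 stood apart before any gene was considered. It was the shallowest library and the first principal component, 59.0% of the variance, gave it a score of 66.2 against -34.9 to 5.34 in the other 4. Its skeletal muscle markers took 0.404% of its counts, where the other 4 mice lay between 0.00587 and 0.0428%. All 18 of 18 muscle markers were highest in it. Values below are therefore given for all 5 mice and, where replicate 7 decides them, also for the other 4.

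The markers of the labelled tissue were abundant. Of 20 brown adipocyte markers, 19 passed 1 CPM, with a median per transcript length of 242 TPM (counts per base of transcript, scaled to a common total) against 8.44 TPM over all 13175 genes, and the exception, the creatine kinase gene Ckmt1, was near 0 at 0.0598 CPM. All 15 of 15 general adipocyte markers passed. Passing 1 CPM did not single out fat cells, since 18 of 18 skeletal muscle, 14 of 14 mural cell and fibroblast and 7 of 8 red blood cell markers passed as well. Over all members of each list the medians were 37.2, 58.5 and 54.7 CPM, against 388 CPM for the brown and 1013 CPM for the general adipocyte markers. The muscle values rest largely on replicate 7, and over the other 4 mice 17 of 18 muscle markers passed with a median of 6.18 CPM, against 18 of 20 and 375 CPM for the brown markers. Of 11 white fat markers found in the table, 7 passed, at a median of 8.37 CPM among those 7, with leptin (Lep) at 11.2 ± 4.00 CPM (SD, n = 5) and the visceral fat gene Tcf21 at 0 counts in every mouse. Endothelial markers passed in 13 of 13 cases and macrophage markers in 11 of 12, the latter at a median of 7.40 CPM. Lymphocyte markers passed in 1 of 12 cases (Ighm, an immunoglobulin heavy chain, 9.70 ± 6.34 CPM), granulocyte markers in 0 of 9 and epithelial, mammary and lymph node markers in 0 of 10. The nerve enzyme genes Th and Dbh and the nerve peptide gene Npy, whose RNA is made in cell bodies outside the depot, were at or near 0. They belong to a list of 11 Schwann cell and sympathetic nerve markers, of which 8 passed, at a median of 18.3 CPM among those 8. S100b from that list had 59.8 ± 10.7 CPM, and which cells it came from was not tested. The haptoglobin gene Hp, listed among liver markers, reached 343 ± 71.7 CPM, whereas albumin (Alb) was at 1.63 ± 0.537 CPM.

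By annotated class, 12009 of the 13175 genes (91.1%) were protein-coding, 683 were lncRNAs, 233 pseudogenes, 203 unconfirmed transcripts (TEC), 30 small or other noncoding RNAs, 16 mitochondrial rRNAs or tRNAs and 1 an immune receptor segment. Protein-coding genes held 93.2% of the counts on average. Mitochondrial rRNAs and tRNAs held 4.01%, pseudogenes 1.37% and lncRNAs 1.14%. The classes differed in how many of their annotated records passed, from 55.2% of protein-coding records to 6.98% of lncRNA and 1.73% of pseudogene records. A median lncRNA among those that passed had 2.31 CPM, and a median protein-coding gene 18.0 CPM.

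The counts were concentrated on few genes. The highest gene took 3.76 to 5.03% of the counts in a mouse, the 10 highest 21.02 to 26.7% and the 100 highest 42.7 to 46.3%, and between 146 and 195 genes were enough for 50% of the counts. In all, 97 genes had a mean of at least 1000 CPM and together held 44.3% of the counts. At the other end, 1505 genes between 1 and 2 CPM held 0.215%. At the limit itself the photoreceptor thioredoxin gene Nxnl1 (1.001 CPM), the hair keratin gene Krt36 and the platelet activating factor receptor gene Ptafr were just inside, and 4930461G14Rik (0.999 CPM), the anchoring protein gene Akap5 and the protease gene Pappa were just outside.

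The mitochondrial genome led the table. It took 22.1 to 27.9% of the counts, of which 18.7 to 21.4% fell on its 13 protein-coding genes, all subunits of the respiratory chain or ATP synthase. For mt-Co1, the catalytic subunit of cytochrome c oxidase (chrM:5328-6872), the CPM was 37631, 42449, 46285, 44837 and 41186 in replicates 2, 3, 5, 6 and 7, a mean of 42477 ± 3362. The 16S rRNA gene mt-Rnr2 had 25751, 29636, 22738, 23350 and 50348 CPM, so that replicate 7 lay far above the other 4, and the 12S rRNA gene mt-Rnr1 was also highest there, at 14948 against 6217 to 11088 CPM. The subunit genes mt-Co2, mt-Co3 and mt-Atp6 were likewise highest in replicate 7, at 33164, 23147 and 27242 CPM against at most 25216, 17718 and 21953 in the others. mt-Nd4 (16141 ± 894 CPM) and mt-Cytb (19848 ± 1315 CPM) showed no such excess. Of the 13 protein-coding genes, 5 were highest in replicate 7 and 3 lowest, where 31.6 and 32.1% of all genes with at least 1 CPM were. The 3 lowest included mt-Nd4l, at 946 CPM against 1386 to 1703 in the others.

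Among nuclear genes, the most counts fell on lipid enzymes and carriers. Scd1, the desaturase that makes monounsaturated fatty acids, had 12410 ± 5689 CPM, Fabp4, the fatty acid carrier of adipocytes, 12385 ± 1539, Lpl, the lipase that frees fatty acids from lipoproteins, 11887 ± 802, and Gpd1, which supplies glycerol phosphate, 10532 ± 1217. Ucp1 (chr8:83290352-83298452, plus strand) had 9444, 8201, 8164, 8773 and 6475 CPM in replicates 2, 3, 5, 6 and 7, a mean of 8211 ± 1102, and held place 15 or 16 in every mouse. It was lowest in replicate 7, and the other 4 lay within 8164 to 9444. Fasn, which builds fatty acids, came next among nuclear genes at 7149 ± 2466 CPM. The nuclear genes that followed included Atp5b and Atp5a1 (ATP synthase), Aldoa and Eno1 (glycolysis), Gnas (the stimulatory G protein of adrenergic receptors), Acsl1 (fatty acid activation) and Hadhb (beta-oxidation), from 4593 to 2716 CPM, with the noncoding Malat1 and 2 pseudogenes among them. An order of such neighbours is loose: of the 29 neighbouring pairs among the 30 highest genes, 4 kept 1 order in all 5 mice.

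**Figure D1:**
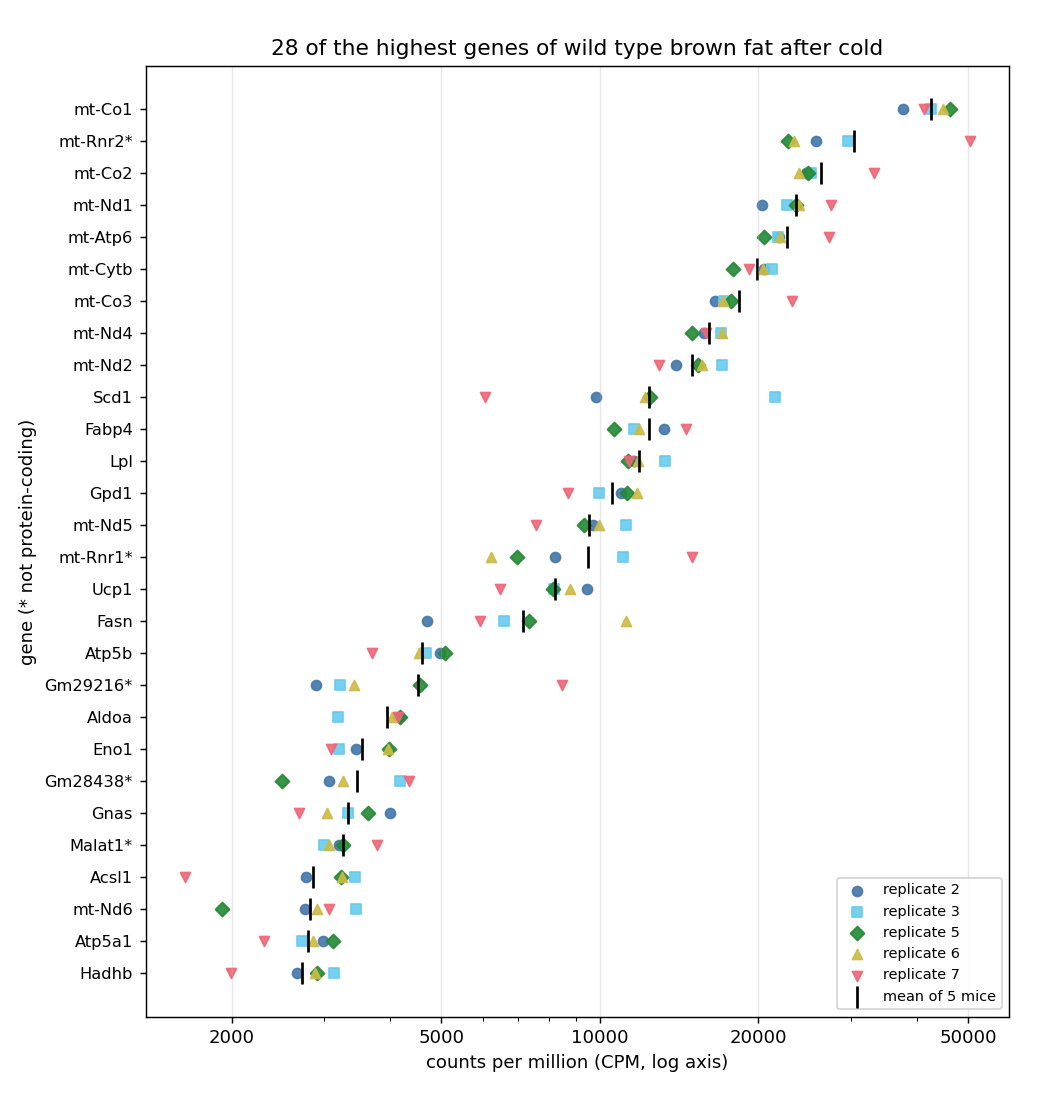
CPM of 28 of the 30 genes with the highest means (vertical axis, an asterisk marks genes that are not protein-coding) in each of the 5 mice, on a log axis. Symbols are mice and the black tick is the mean; mt-Co1 leads at 42477 CPM, and Scd1 has the widest gap between mice among nuclear protein-coding genes shown, from 6053 to 21490 CPM.

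CPM favours long transcripts, so levels of different genes were compared as TPM, computed from the counts and the median length of a gene's annotated transcripts. On this scale mt-Co2 was first (56447 ± 5099 TPM), followed by mt-Atp6 (48865 ± 3127), mt-Co1 (40573 ± 4462) and mt-Nd1 (36220 ± 2921). mt-Co2 was above mt-Atp6 and mt-Atp6 above mt-Co1 in all 5 mice. Fabp4 was the highest nuclear protein-coding gene at 20282 ± 1649 TPM, and Ucp1 had 7427 ± 1239 TPM, beside Gpd1 at 7121 ± 1095. The length assigned to a gene matters here. With the longest transcript Fabp4 fell to 5037 TPM, below Ucp1 at 8714 and Gpd1 at 6389, and Malat1 fell from 7891 to 803 TPM. Of the 50 highest genes by CPM, 31 were also among the 50 highest per length. Dividing by length favours short transcripts by construction. The median length was 1270 bases over the 100 highest nuclear protein-coding genes per length, 2249 bases over the 100 highest by CPM and 2746 bases over all 11996.

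Several of the most abundant pseudogenes were nuclear copies of mitochondrial genes on chromosome 1 (GRCm38, minus strand, between 24611535 and 24616197), and their sequences are shown because they decide how these counts can be read. Each pair below gives the copy and the mitochondrial gene from GENCODE M21 transcripts, 60 bases 5′ to 3′ in lower case, with bases that differ in capitals. The Gm28661 copy of mt-Co2 (chr1:24614885-24615565) and the mitochondrial gene, bases 1 to 60:
Gm28661: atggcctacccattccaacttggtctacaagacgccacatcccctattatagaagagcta
mt-Co2: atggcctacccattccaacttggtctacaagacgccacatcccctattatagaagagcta
The Gm28438 copy of mt-Nd3 (chr1:24612775-24613119) and the mitochondrial gene, bases 1 to 60:
Gm28438: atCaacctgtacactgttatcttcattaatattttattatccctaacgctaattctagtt
mt-Nd3: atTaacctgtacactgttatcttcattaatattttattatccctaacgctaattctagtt
The Gm29216 copy of mt-Co1 (chr1:24615706-24616197), bases 1 to 60, and the mitochondrial gene, bases 1054 to 1113:
Gm29216: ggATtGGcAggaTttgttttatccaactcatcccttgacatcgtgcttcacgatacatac
mt-Co1: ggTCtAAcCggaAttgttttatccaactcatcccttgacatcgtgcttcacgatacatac

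Gm28661 matched mt-Co2 over 681 aligned bases with 0 differences, and all of its 651 words of 31 bases were found in mt-Co2. Gm28437 (mt-Co3, 783 bases), Gm10925 (mt-Atp6, 678 bases), Gm28439 (mt-Nd4, 876 bases) and Gm10222 (mt-Nd4l, 294 bases) also had 0 differences. Gm28438 differed from mt-Nd3 at 1 base of 345, T3C, and Gm29216 from mt-Co1 at 6 of 492, T1056A, C1057T, A1059G, A1060G, C1062A and A1066T, all within its first 13 bases. In these tokens the mitochondrial gene's base comes first, then the position counted from 1 at the 5′ end of the mitochondrial transcript, then the base of the copy. A read that lies within a stretch with 0 differences carries no base that tells the pair apart.

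The counts given to several of the copies varied from mouse to mouse. Gm28661 had 0, 1471, 0, 8.56 and 0 CPM in replicates 2, 3, 5, 6 and 7, the largest SD of log2 CPM of all 13175 genes, while mt-Co2 had 24629, 25216, 24805, 23909 and 33164 CPM. Replicate 3 was thus the 1 mouse with over 1000 CPM on the copy, and Gm28437 (0, 292, 7.49, 18.5 and 0 CPM) and Gm10925 (651, 1629, 777, 880 and 770 CPM) were highest in that mouse too. The identical copies Gm28439 and Gm10222 had a mean of 0 and 0.124 CPM. Gm29216 had 4514 ± 2309 CPM, with 8489 CPM in replicate 7 and 2897 to 4560 in the others. Gm28438 had 3466 ± 778 CPM, above the 634 ± 234 CPM of mt-Nd3 in every mouse. The copies share nearly all of their sequence with a mitochondrial gene, so that their values are uncertain one by one, and so are those of the 5 genes matched along nearly their whole length. Gm28439 covers 876 of the 1378 bases of mt-Nd4 and Gm29216 492 of the 1545 bases of mt-Co1, so that these copies leave the rest of each gene unmatched. Other records share more of mt-Co1, however, and 63.9% of its words occurred in some other gene, 45.2% in the pseudogene Gm13340 alone. Uncertain too is the value of Gm7336 (1118 ± 322 CPM), which shares 97.3% of its words with the glycolysis gene Gapdh (2395 ± 419 CPM).

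**Figure D2:**
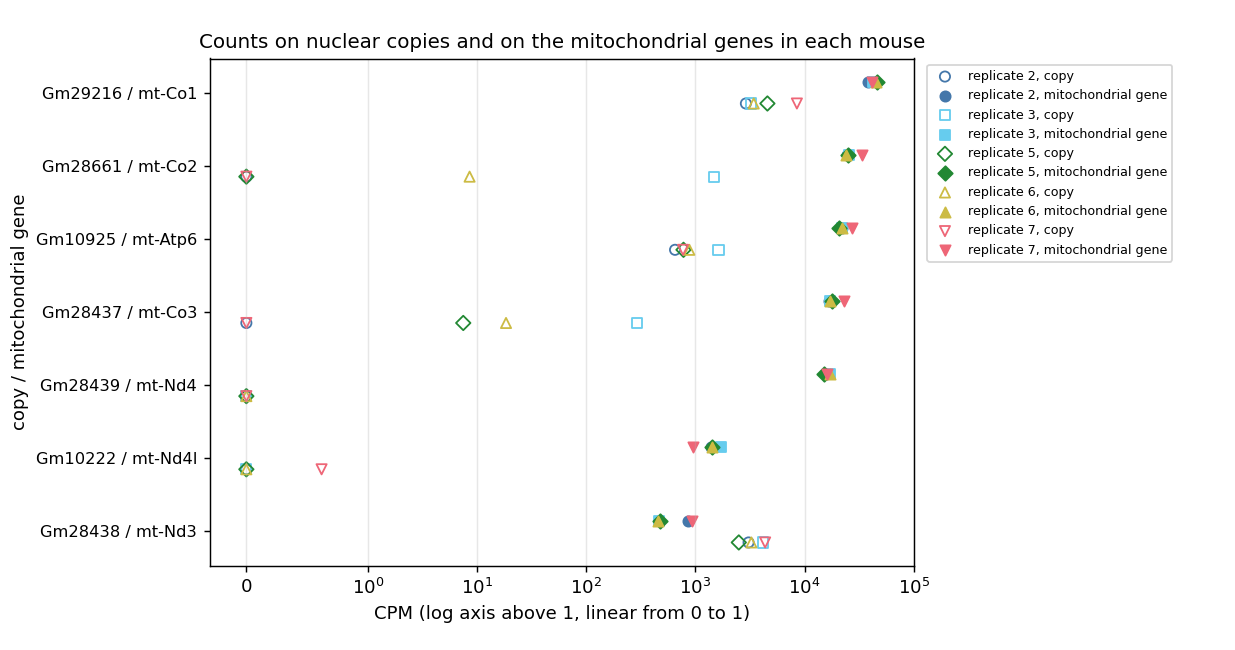
CPM in each mouse (horizontal axis, log above 1 and linear from 0 to 1) of 7 nuclear copies on chromosome 1 (open symbols) and the mitochondrial genes they match (filled symbols). The copies Gm28661 and Gm28437 are at 1471 and 292 CPM in replicate 3 and at most 18.5 CPM elsewhere, and Gm28438 lies above mt-Nd3 in every mouse.

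The other noncoding genes were led by Malat1 (3256 ± 309 CPM) and Neat1 (2581 ± 299 CPM), abundant nuclear lncRNAs, and by AC160336.1 (606 ± 51.5 CPM), annotated as 1 transcript of 93147 bases and therefore at 9.60 TPM. The brown fat lncRNA Lncbate10 had 172, 200.8, 181, 149 and 146.99 CPM in replicates 2, 3, 5, 6 and 7, a mean of 170.01 ± 22.6 and place 4 among lncRNAs, and Oip5os1 followed at 154 ± 14.5 CPM. Their coefficients of variation (CV, the SD over the mean of the 5 CPM values) ranged from 8.49% for AC160336.1 to 13.3% for Lncbate10. The median CV over the 683 lncRNAs was 29.2%, but at a median level of 2.31 CPM. Over all genes between 100 and 1000 CPM the median CV was 14.7%. Small and other noncoding RNAs were led by the ribosomal RNA record CT010467.1 (951 ± 165.6 CPM), Mir6236 (94.3 ± 17.5 CPM) and Gm24245 (63.8 ± 11.4 CPM), then Rn7s1, a signal recognition particle RNA (15.2 ± 6.68 CPM, highest at 26.8 in replicate 7), and Gm22993 (11.8 ± 2.28 CPM). Poly A selection does not target these RNAs. Gm24245 shares 100% of its words with Gm24270 and Rn7s1 100% with Rn7s2, so that their values are uncertain one by one.

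Thermogenic genes beside Ucp1 were abundant, and their spread between mice differed from gene to gene. Over the 19 brown markers with at least 1 CPM the median CV was 19.5%, against 17.6% over the 13175 genes, and 12 of the 19 lay above the latter. The CV depends on level, however. These 19 had a median of 407 CPM, and over all genes between 100 and 1000 CPM the median CV was 14.7%. Cidea, a lipid droplet protein of brown adipocytes, had 2560, 1962, 2345, 1989 and 2128 CPM in replicates 2, 3, 5, 6 and 7. Dio2, which activates thyroid hormone, had 468, 469, 465, 477 and 306 CPM, so that 4 mice lay within 465 to 477 and replicate 7 below them. Kcnk3, a potassium channel, had 1172 ± 102 CPM and Elovl3, a fatty acid elongase, 1210 ± 220 CPM. Ppargc1a, the coactivator of mitochondrial biogenesis, was less even at 229, 348, 254, 224 and 94.5 CPM, lowest in replicate 7 and highest in replicate 3. Prdm16, a regulator of brown fat identity, had 32.5 ± 5.97 CPM. All 24 of 24 listed transcription regulators passed 1 CPM, led by Nfe2l1 (492 ± 67.9 CPM), Cebpa (435 ± 109), Cebpb (408 ± 89.2) and the receptor gene Esrra (368 ± 49.4). Together the 20 brown markers held 1.92 ± 0.194% of the counts, from 1.59% in replicate 7 to 2.11% in replicate 2.

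The nuclear genes of oxidative metabolism were nearly all abundant. Every listed gene of complexes I (37), II (4), III (9) and IV (14), of the TCA cycle (18) and of mitochondrial fatty acid oxidation (21) passed 1 CPM. Of the 17 records found for complex V, 16 did. Without replicate 7, 13 of the 14 complex IV genes passed, and the counts of the other lists named here were the same. The nuclear subunits held 1.11 ± 0.133% of counts for complex I, 0.345 ± 0.0401% for complex II, 0.609 ± 0.0616% for complex III, 0.887 ± 0.161% for complex IV and 1.18 ± 0.0768% for complex V, beside 19.97 ± 0.979% on the 13 mitochondrially encoded genes. Per length the median was 504 TPM over the complex I list and 1538 TPM over complex IV, against 21357 TPM over the mitochondrially encoded genes. The most abundant subunit genes per length on the nuclear side of complex IV were Cox6a1 (3416 ± 473 TPM) and Cox4i1 (2420 ± 445 TPM). The TCA cycle held 1.999 ± 0.342% of counts, with Ogdh (2028 ± 396 CPM) and the citrate synthase gene Cs (1811 ± 284 CPM) among its members. Fatty acid oxidation held 2.33 ± 0.327%, led by Acsl1 (2858 ± 729 CPM), Hadhb (2716 ± 435), Acadvl (2529 ± 264) and Acadl (2175 ± 296).

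Among the fuel supply lists, the one for the synthesis of fat differed most between mice. Genes of fatty acid uptake and binding held 2.99 ± 0.128% of counts, with Cd36, a fatty acid transporter, at 2298 ± 335 CPM. Glucose uptake and glycolysis held 2.17 ± 0.156%, with 18 of 20 records above 1 CPM. Lipolysis and droplet genes held 1.28 ± 0.102%, among them the triglyceride lipase gene Pnpla2 (2277 ± 283 CPM) and the hormone-sensitive lipase gene Lipe (1013 ± 135 CPM). Lipogenesis held 3.51 ± 0.731%, from 2.66% in replicate 7 and 2.88% in replicate 2 to 4.16% in replicate 6 and 4.28% in replicate 3. Its leading members did not peak in the same mouse. Scd1 had 9852, 21490, 12469, 12188 and 6053 CPM in replicates 2, 3, 5, 6 and 7 and was highest in replicate 3. Fasn had 4697, 6581, 7331, 11206 and 5930 CPM and was highest in replicate 6, as were Acly, which makes cytosolic acetyl-CoA (407, 489, 735, 1202 and 696 CPM), and Thrsp, a lipogenic regulator (1049, 953, 1380, 1969 and 1756 CPM). The elongase gene Elovl6 (CV 9.38%) in the same list varied less.

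In 13 of 25 enzyme, carrier and receptor families, 1 member held over 80% of the family's summed TPM. Ucp1 held 97.5 ± 0.268% (SD, n = 5) of the uncoupling protein family beside Ucp3 and Ucp2, and Dio2 nearly all of the deiodinases. Slc2a4, the insulin-responsive glucose transporter, held 98.8 ± 0.294% of the sum with Slc2a1 and Slc2a3, Scd1 97.5 ± 0.779% of the desaturases, Gpd1 97.04 ± 0.396% of glycerol-3-phosphate dehydrogenases and Esrra 95.2 ± 1.60% of its receptors. Cpt1b, the muscle and brown fat form of the enzyme that admits fatty acids to mitochondria, held 96.9 ± 0.767%, although 79.7% of its words are shared with the record Gm44502. Hk2 held 89.2 ± 1.02% of the hexokinases, Fabp4 84.2 ± 2.72% of 3 fatty acid binding proteins and Adrb3, the adipocyte receptor for noradrenaline, 83.6 ± 2.22% of the beta-adrenergic receptors. Some of these shares rest on the transcript length used. With the longest transcript in place of the median, Fabp4 held 53.7% beside Fabp3 at 45.9%, Adrb3 held 77.3%, and 12 families had a member over 80%.

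Other families were shared between members. Cox8b held 53.1 ± 3.61% and Cox8a 46.9% of subunit 8 of cytochrome c oxidase, Cox7a1 68.0 ± 2.24% and Cox7a2 31.98% of subunit 7a, and Elovl3 54.3 ± 3.30% and Elovl6 41.2 ± 3.03% of the elongases. With the longest transcript the elongase shares were 69.4 and 24.7%. Plin2 (49.3 ± 2.71%) and Plin1 (35.98 ± 1.89%) shared most of the perilipins, which coat the lipid droplet, and Slc25a5 (63.6 ± 4.60%) and Slc25a4 (36.3%) the adenine nucleotide translocators. Pparg held 69.1 ± 1.12% beside Ppara and Ppard. The shares of Atp2a2 among calcium pumps (77.2 ± 30.2%), Ppargc1a among the PGC-1 coactivators (65.7 ± 14.1%) and Ckb among creatine kinases (93.6 ± 12.8%) had the largest SDs of the leading members. These SDs rest mainly on replicate 7, where the shares were 24.1, 42.8 and 70.7%, and over the other 4 mice they were 90.5 ± 6.29, 71.4 ± 6.76 and 99.3 ± 1.06%. The muscle forms Ckm and Atp2a1 were counted mainly in replicate 7, at 384 and 520 CPM against at most 28.4 and 63.3 CPM in the others.

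**Figure D3:**
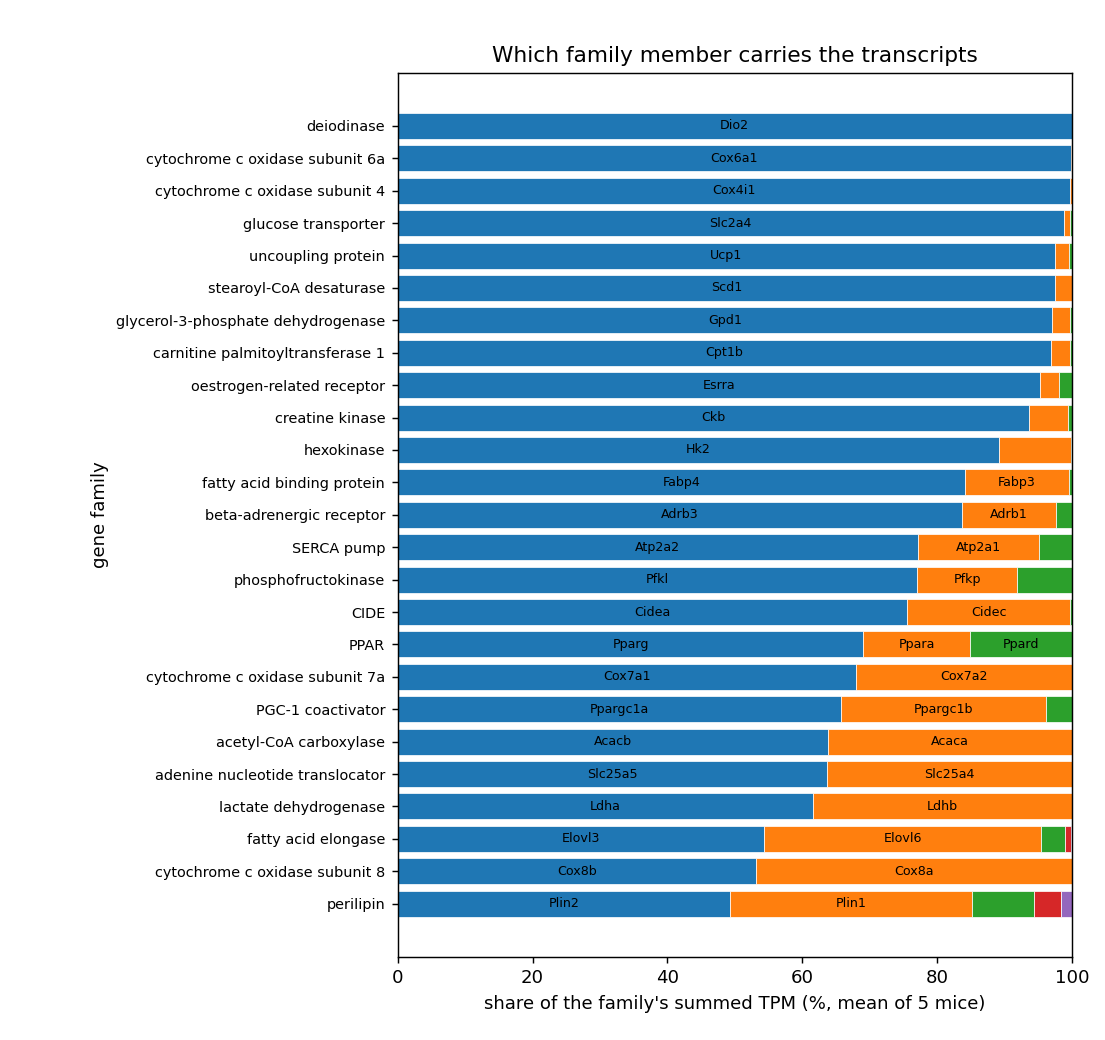
Share of a family's summed TPM (horizontal axis, per cent, mean of 5 mice) held by each member of 25 families, with members stacked in order of level. Names are given for members with over 12%; Ucp1 takes 97.5% of the uncoupling proteins, whereas Cox8b and Cox8a take 53.1 and 46.9%.

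Genes of secreted proteins, vessels and matrix gave a second layer of the tissue. The complement factor gene Cfd (552, 252, 672, 842 and 1140 CPM in replicates 2, 3, 5, 6 and 7), the growth factor gene Vegfa (427 ± 60.9 CPM) and the adiponectin gene Adipoq (329 ± 31.5 CPM) led the adipokines and growth factors listed, after the cathepsin gene Ctsz (815 ± 167.9 CPM). Fgf21, a hormone gene, stood close to the limit at 1.21 ± 0.284 CPM, and the interleukin gene Il6 at 0.0207 CPM did not pass. The basement membrane collagens Col4a1 (992 ± 226 CPM) and Col4a2 (876 ± 167.1 CPM) far exceeded the fibrillar Col3a1 (109 ± 54.1 CPM) and Col1a1 (56.5 ± 33.8 CPM), also per length (220 and 200 TPM against 28.9 and 13.95 TPM). Col3a1 and Col1a1 were both highest in replicate 2, at 204 and 114 CPM. Ifi27 (1387 ± 178 CPM) led the interferon list, whose other members were at most 65.0 CPM. Among proliferation genes 10 of 20 passed, and 7 of 20 without replicate 7. Mki67, a marker of dividing cells, did not pass over the 5 mice (0.887 CPM).

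The spread between mice was summarised as the CV. Its median over the 13175 genes was 17.6%, with 10% of genes below 8.16% and 10% above 39.3%. For the same genes without replicate 7 it was 14.1%. The CV fell with level, from a median of 35.5% between 1 and 2 CPM, where counting error alone gives 24.4%, to 14.4% between 10 and 50 CPM, where counting error gives 6.16%. Above that it stayed level, at 14.6% in the 97 genes above 1000 CPM, where counting error gives 0.691%, so that depth did not limit precision there. The biological CV fitted by edgeR over all genes was 0.244, and 0.161 without replicate 7. Noncoding classes varied more at their lower levels, with median CVs of 29.2% for lncRNAs and 35.7% for pseudogenes against 16.8% for protein-coding genes.

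**Figure D4:**
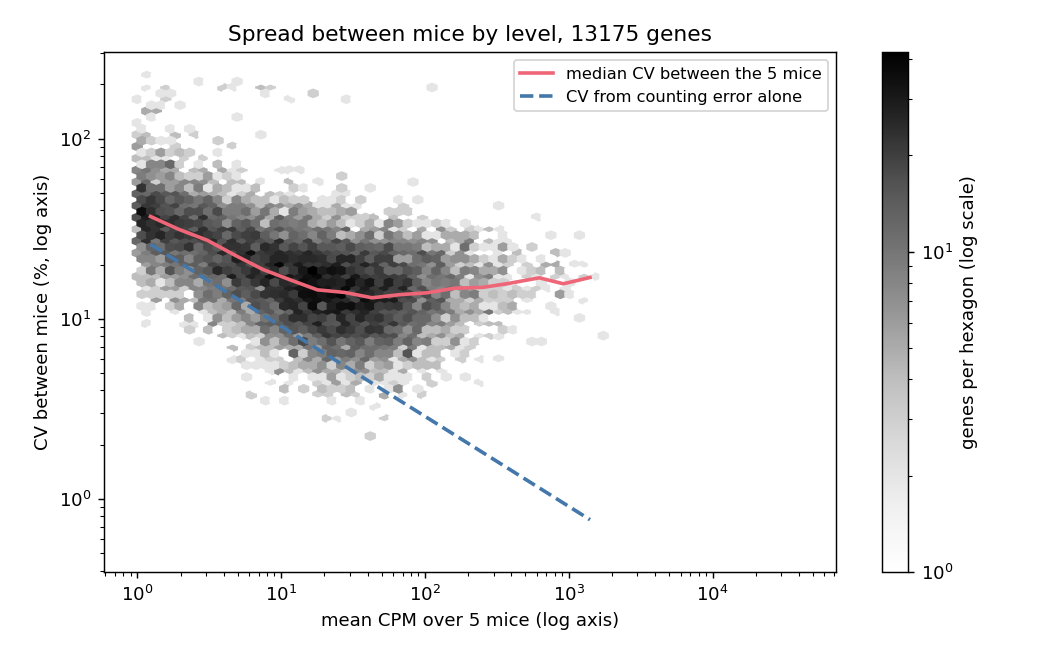
CV between the 5 mice against mean CPM for 13175 genes, both on log axes, with darker hexagons holding more genes. The solid line is the running median and the dashed line the CV that counting error alone gives; the median CV falls from 35.5% between 1 and 2 CPM to 14.4% between 10 and 50 CPM and then stays level while counting error keeps falling.

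The most even gene at 10 CPM or more was Sec24b. This gene, for a coat protein of transport vesicles, had 30.1, 30.3, 30.4, 30.3 and 30.6 CPM in replicates 2, 3, 5, 6 and 7, a CV of 0.532%. It was followed by Arfgap2, also of vesicle transport (CV 1.02%), Eif3j2 of translation initiation (1.53%, 93.95% of its words shared with Eif3j1), Kank2, Tmem248, Ccdc186, the chaperonin gene Cct7, Cnot11 of the deadenylase complex, the kinase gene Camk2d and Rfng, up to 1.96%. These are the smallest of 8071 values from 5 mice each, chosen for being smallest.

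The least even genes fell into 2 kinds. Of the 20 genes with the largest SD of log2 CPM, 6 were pseudogenes or records that share their sequence with another gene (Gm28661, Gm28437, Rps6-ps4, Gm12671, Gm12918 and Gm45837). The other 14 are known from striated muscle, 10 of them on the marker list, and all were highest in replicate 7: Myh4, Ckm, Acta1, Atp2a1, Tnnt3, Tnni2, Tnnc2, Pvalb, Actn3, Tcap, Ryr1, Ttn, Myh1 and Csrp3. Myh4, a fast myosin heavy chain, had 6.497, 0, 70.3, 0.0634 and 722 CPM in replicates 2, 3, 5, 6 and 7. Replicate 5 was second for it, as for Acta1 (13.8, 0.823, 36.7, 0 and 503 CPM). Red blood cell genes were also highest in replicate 7, at 0.260% of counts against 0.0672 to 0.108%, and all 13 of 13 endothelial markers were, at 0.272% against 0.147 to 0.224%.

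Metabolic genes took part in the departure of replicate 7. It had the highest value in 4159 genes (31.6%) and the lowest in 4227 (32.1%), where any other mouse was highest in 11.9 to 24.3% and lowest in 6.12 to 29.7%. All 18 of 18 TCA cycle genes and 19 of 21 fatty acid oxidation genes were lowest in replicate 7, which held 1.42% and 1.75% of its counts on them against 1.98 to 2.26% and 2.38 to 2.53% in the others. In contrast, 13 of 14 nuclear complex IV genes and 65 of 81 cytosolic ribosomal protein genes were highest in it. The other complexes differed: 24 of 37 genes of complex I, 5 of 9 of complex III and 11 of 16 of complex V were highest in it. Of the 4 complex II genes 0 were highest and 3 lowest. The muscle markers took 0.404% of its counts, and mitochondrial rRNA 6.53% against 2.96 to 4.07% in the others. Transcript length moved with the same mouse: its median deviation from the mean of the 5 on the log2 scale was 0.19 in the shortest of 5 equal length classes of nuclear protein-coding genes and -0.08 in the longest, while in replicate 3 it was -0.19 and 0.03. The part of muscle, blood, vessels or transcript length in these differences was not tested.

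**Figure D5:**
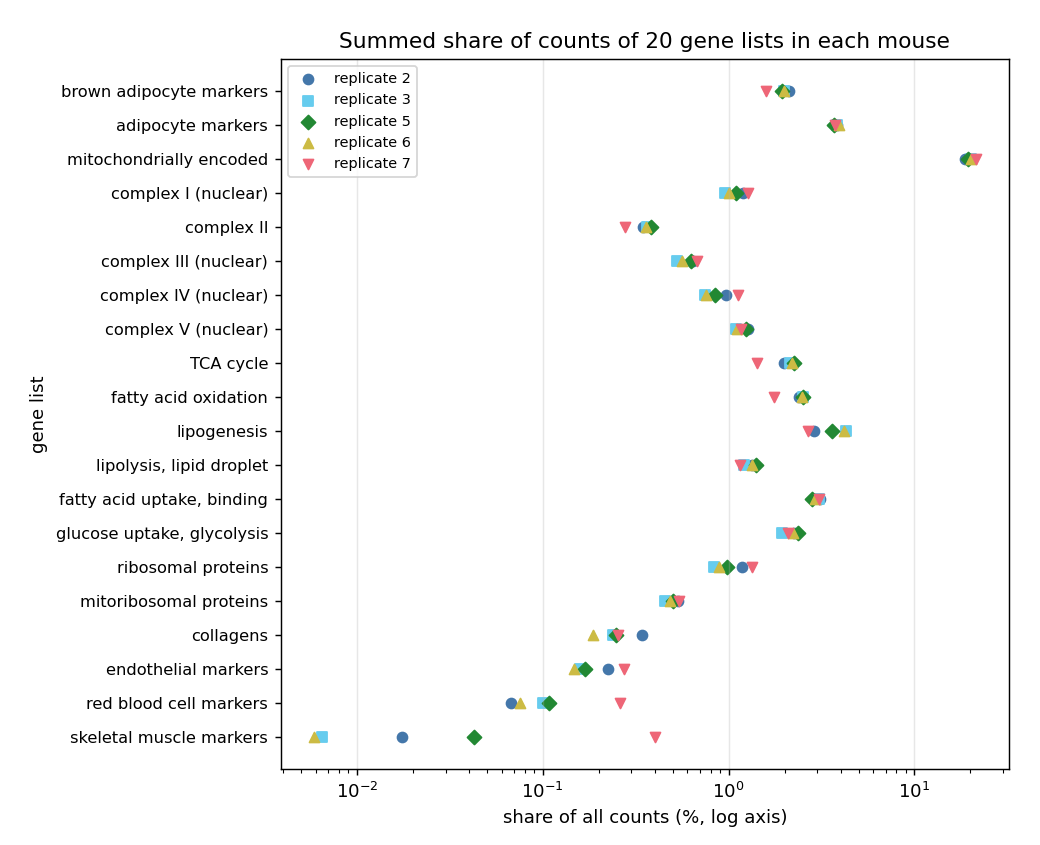
Summed share of all counts (horizontal axis, per cent, log) of 20 gene lists in each of the 5 mice. Replicate 7 lies apart at 0.404% for skeletal muscle markers and 0.260% for red blood cell markers, and below the other 4 mice for the TCA cycle (1.42%) and fatty acid oxidation (1.75%).

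Without replicate 7, and among protein-coding genes of at least 10 CPM, the 20 largest SDs of log2 CPM still included the muscle genes Myh4, Acta1, Atp2a1 and Mb, which were higher in replicates 5 and 2 than in 3 and 6. Cyp2b10, a drug-metabolising enzyme, had 40.3, 6.75, 35.1 and 61.6 CPM in replicates 2, 3, 5 and 6, and Cyp1a1, another, 13.8, 6.01, 7.42 and 35.5 CPM. Zbtb16 and Fkbp5, both induced by glucocorticoids, were highest in replicate 2, at 95.5 and 46.1 CPM against at most 48.3 and 22.7 in the other 4 mice. Iigp1, an interferon-inducible GTPase, was also highest there (34.3 CPM against 6.83 to 8.69). Pmepa1, a gene induced by TGF-beta, had 398, 493, 436 and 143 CPM, with replicate 6 low. Bdh1, a ketone body enzyme, stood out in replicate 5 (55.7 CPM against 16.4 to 23.6) and Tlcd2 in replicate 6 (21.3 CPM against 5.74 to 7.23). The remaining genes were Zc3h11a, Mup22, Slc25a10, Nr4a1, Col1a1, Pam16, Bhlhe40 and Depp1. The values of Mup22 and Zc3h11a are uncertain, since 100% and 70.4% of their words occur in other genes.

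The mouse numbers of the labels form 2 series, replicates 2 and 3 in a lower one and replicates 5, 6 and 7 in a higher one, and the genes were tested between them. What the numbers stand for is not given in the sources used here. edgeR's quasi-likelihood test called 0 of the 13175 genes at an adjusted p under 0.05 (0%), with 169 (1.28%) at an unadjusted p under 0.05, fewer than the 5% that uniform p-values give, and the DESeq2 Wald test called 5. The unadjusted count rose to 418 (3.22%) without replicate 7 and 278 (2.12%) without replicate 2, and the smallest edgeR adjusted p was 0.835 with all mice and 0.0752 without replicate 7. The smallest edgeR p belonged to Retn, which encodes the adipokine resistin, at 30.98 and 32.6 CPM in replicates 2 and 3 and 72.7, 88.9 and 99.4 CPM in replicates 5, 6 and 7. Its log2 difference was 1.47 ± 0.20 (SE), with an adjusted p of 0.835 by edgeR. Slc25a10, the mitochondrial dicarboxylate carrier, had 14.1 and 12.6 against 31.5, 47.5 and 35.4 CPM (log2 difference 1.54 ± 0.23, adjusted p 0.835 by edgeR). The third gene by p was Gm9843, at 7.16 and 2.63 CPM in the lower series and 0 counts in the higher. It reached a mean of 1 CPM only through the lower series, so that its place by p rests on the mice that let it in.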

How the data were processed

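Poly A RNA of iBAT from 5 wild type mice was measured, 1 library each. Per the labels and the study's methods, the authors ran cutadapt to filter reads and salmon to count them against GENCODE M22, or M22 with RNAcentral, on GRCm38, and no tool version is given in the sources used here. The values deposited by the authors were estimated counts (expected counts) per gene, as whole numbers with no scaling to depth. Salmon shares a read that matches several transcripts among them by estimate, and whether strand was used is not stated. The 5 columns of the other genotype entered no value.

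CPM used the column totals, and log2 CPM a prior count of 2. Gene positions, transcript lengths and sequences came from GENCODE M21 on the same build, which held 99.5% of the gene IDs. TPM used the median transcript length. Sequence sharing was counted as 31-base words of a gene's transcripts found in other genes. The number series was tested in R 4.3.3 with edgeR 4.0.16 (TMM, robust quasi-likelihood, Benjamini-Hochberg over all genes tested), with DESeq2 1.42.0 as an alternative. Tested on simulated data for this comparison, over 13175 genes, it called 31% of genes changed 2-fold and 83% of those changed 4-fold, and 17 of 12975 unchanged genes. The simulated counts were drawn for each gene on its own, without a library that departs in many genes together as replicate 7 does. These rates may therefore not hold for the real mice. All other values are descriptions, as mean ± SD over mice, computed in Python 3.11.15 with pandas 2.3.3.

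The genes named were the 30 highest by CPM, the 15 highest per length, the 5 highest of each noncoding class, the 20 with the largest SD of log2 CPM, the 10 with the smallest CV at a mean of at least 10 CPM, the 3 smallest p between series, 3 on each side of 1 CPM, and the leading and most variable list members. Of the 30 highest by CPM, 2 are not reported here. Other list members were named after their values were seen. The members and lists were chosen with earlier results of these data known. The gene families, and the 2 alternatives named as such below, were chosen after seeing the data. The replicates are separate mice, and p-values measure only the spread between these 5 libraries. Alternatives were TMM and DESeq2 size factors, leaving the mitochondrial genome out of the totals, other minimum levels and lengths, thinning to the smallest total, and leaving out each mouse.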

Additional observations from a re-analysis of the deposited data

Results flagged for a closer look

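Of 105 sets of 5 values searched (library measures, list shares and named genes), 33 had a highest or lowest mouse whose gap to the next took a larger part of the whole range than the 95% limit of Dixon's test for 5 values allows. Over all 13175 genes with at least 1 CPM, 1055 (8.01%) passed the same limit, 685 of them with replicate 7 as the mouse apart. Chance passes it in about 1 in 20 sets, but that rate is no yardstick for the 33: genes named for a large SD were chosen for such gaps, and the sets share their mice and are not independent. In 24 of the 33 the mouse was replicate 7, in 5 replicate 3, in 2 replicate 2, and in 1 each replicates 5 and 6.

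For replicate 7, the list shares apart were 0.404% of counts on skeletal muscle markers (0.00587 to 0.0428% in the others), 0.260% on red blood cell markers (0.0672 to 0.108%) and 1.75% on fatty acid oxidation (2.38 to 2.53%). Its muscle genes apart were Myh4 at 722 CPM, Atp2a1 at 520, Acta1 at 503, Ckm at 384, Tnnt3 at 357, Tnnc2 at 214, Tnni2 at 195, Pvalb at 146, Ttn at 141, Myh1 at 109, Actn3 at 107, Tcap at 79.2, Ryr1 at 70.3 and Csrp3 at 48.4. Its mitochondrial genes apart were mt-Rnr2 at 50348 CPM, mt-Co2 at 33164, mt-Atp6 at 27242 and mt-Co3 at 23147. The records Gm45837 (41.8 CPM), Gm12918 (28.9 CPM) and Rn7s1 (26.8 CPM) were high in it as well.

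Replicate 3 was high for the mitochondrial copies Gm10925 (1629 CPM), Gm28661 (1471 CPM) and Gm28437 (292 CPM), high for Lpl (13276 against 11331 to 11844 CPM) and low for Aldoa (3182 against 4037 to 4179 CPM). Replicate 2 was high for Fkbp5 (46.1 CPM) and Iigp1 (34.3 CPM), replicate 5 for Bdh1 (55.7 CPM) and replicate 6 for Tlcd2 (21.3 CPM).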

How the results depend on the processing

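The number of genes at 1 CPM, 13175, ranged from 11670 with a minimum of 2 CPM to 14853 with 0.5 CPM and from 12973 to 13242 when 1 mouse was left out. Ucp1, at 8211 CPM, was 8209 with TMM, 8206 with DESeq2 size factors and 7903 to 8645 without 1 mouse. Leaving the mitochondrial genome out of the totals, which raises all nuclear CPM by construction, gave 10776 CPM for Ucp1, 10.6% of counts on the 10 highest genes (23.0% with it) and list shares of 2.52% (brown markers), 5.001% (adipocyte markers), 1.46, 0.453, 0.802, 1.17 and 1.55% (complexes I to V), 2.62% (TCA cycle), 3.06% (fatty acid oxidation), 4.61% (lipogenesis), 1.69% (lipolysis), 3.94% (fatty acid uptake), 2.85% (glucose use), 1.38% (ribosomal proteins), 0.662% (mitoribosomal proteins), 0.335% (collagens) and 0.257% (endothelial). The median CV, 17.6%, was 14.3% at 10 CPM or more, 46.1% over genes with any count, and 13.9 to 18.6% without 1 mouse, lowest without replicate 7 with genes chosen anew. It was 16.8% over nuclear protein-coding genes, an alternative chosen after seeing the data. The skeletal muscle share, 0.0953% over 5 mice, was 0.0181% without replicate 7. Of the 20 genes with the largest SD, 3 were also among the 20 taken without that mouse from protein-coding genes, also chosen after seeing the data. The 13 families with a member over 80% were 12 with the longest transcript and 14 without replicate 7, both chosen after seeing the data, as were the marker and list counts without replicate 7. Between number series, 0 genes were called with each other scaling and without each mouse, 5 with DESeq2 and 41 of 27995 with no filter on low counts. The cause of these shifts was not tested. No paired analysis was possible because the comparison lies within 1 genotype, where each replicate number occurs once. Depth limits genes near 1 CPM, and 5 mice limit every SD.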
